A study of Rattus norvegicus with 12 samples.

Results

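Metallothionein and Nrf2 target genes were examined in rat colonic epithelium. The set was selected on differences between a high-protein and a normal-protein diet that had been seen in these same arrays, and it takes in pathway genes that differed little. They were Mt1 (spelled Mt1a on the array), Mt2A, Nfe2l2, Nqo1, Gclc, Gclm, Hmox1, Txnrd1 and Gpx2. All 9 were on the array, and 8 of them were among the 10451 genes bright enough to test. Gclm was not. Since that contrast chose them, the diet differences of these genes are given as a description with no test.

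The samples came from male Wistar rats that weighed 180 to 200 g at the start. In 6 samples the rats had eaten a normal-protein diet and in 6 a high-protein diet, each for 6 weeks, and no other agent or allele was named. Each sample was hybridised to 1 one-colour array, and whether the replicates were separate animals is not stated. The tests therefore measure the spread between these samples, which may be technical. Values are normalized log2 intensities, on which a step of 1 is a doubling, and each difference subtracts the normal-protein mean from the high-protein mean, with the standard error (SE) of the limma fit.

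Metallothioneins are small cysteine-rich proteins that bind zinc, copper and cadmium. Their genes are switched on by the zinc-sensing factor MTF1, which binds metal response elements, and also respond to glucocorticoids and oxidants. Nfe2l2 encodes Nrf2, which Keap1 holds back and marks for degradation until electrophiles or oxidants release it. Nrf2 then binds antioxidant response elements with small Maf partners and switches on enzymes such as the quinone reductase Nqo1. In the colon such enzymes handle reactive compounds that arise from food, bacteria and inflammation.

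The upstream sequences of Mt1 and Mt2A are shown because both genes varied together on these arrays, and that of Nqo1 because it is the quinone gene set against them. RefSeq windows of 250 bases before the start of transcription were found for 8 of the 9 genes in the GRCr8 assembly. Capitals mark the metal response core, searched as TGCACNC and TGCGCNC, and the antioxidant response core, searched as TGACNNNGC, each on both strands. No match of one core overlapped a match of the other in the windows printed. All 3 windows are on the minus strand, read 5′ to 3′ toward the gene, at chr19:10832976-10833225 for Mt1, chr19:10838709-10838958 for Mt2A and chr19:52220268-52220517 for Nqo1.
Mt1: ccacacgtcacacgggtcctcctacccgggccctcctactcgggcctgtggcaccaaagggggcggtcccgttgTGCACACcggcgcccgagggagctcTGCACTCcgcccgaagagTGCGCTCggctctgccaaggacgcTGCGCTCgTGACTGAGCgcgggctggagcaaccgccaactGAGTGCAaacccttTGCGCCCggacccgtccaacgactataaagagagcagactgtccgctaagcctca
Mt2A: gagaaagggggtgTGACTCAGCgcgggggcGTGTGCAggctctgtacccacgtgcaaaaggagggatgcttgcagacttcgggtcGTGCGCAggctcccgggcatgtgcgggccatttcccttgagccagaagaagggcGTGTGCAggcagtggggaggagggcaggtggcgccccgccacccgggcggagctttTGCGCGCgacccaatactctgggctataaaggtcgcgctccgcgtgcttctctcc
Nqo1: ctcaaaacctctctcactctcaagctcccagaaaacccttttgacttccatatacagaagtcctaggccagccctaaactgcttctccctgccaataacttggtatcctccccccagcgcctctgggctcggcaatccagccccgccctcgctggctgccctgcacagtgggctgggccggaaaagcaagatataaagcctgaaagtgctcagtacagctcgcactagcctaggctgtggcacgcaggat

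The Mt1 window held 6 matches to the metal response core and the Mt2A window held 4. Of 33469 RefSeq windows of the same length, 20.6% held at least 1 such match, 0.266% at least 4 and 0.0269% at least 6. Both metallothionein windows also held 1 match to the antioxidant response core, which 10.1% of windows held. In Mt1 that match lay 101 bases before the start, next to a metal response match at 109 bases. The starts of the genes lie 5733 bases apart on the same strand. The Nqo1 window held neither core, which says only that these letters are not in these 250 bases. Among the other members, Gpx2, Gclm and Txnrd1 had 1 antioxidant match in a window, and Gclm also had 2 metal response matches. The Nfe2l2 and Gclc windows held neither core. A match is a string of letters and not a measured binding site.

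The share of gene spots that the scanner software marked as good ran from 42.67% on normal protein replicate 3 to 55.86% on high protein replicate 3. No spot of a member had saturated pixels. The arrays lay on 3 slides, each with 2 arrays of each diet. In the limma fit over all genes, 0 genes passed an adjusted p of 0.05 (0% called), the smallest adjusted p was 0.68, and 694 genes had an unadjusted p under 0.05. Markers of several cell types had lower means on high protein, on all 8 goblet, all 10 smooth muscle and 10 of 11 tested macrophage markers, and on 12 of 14 colonocyte markers. Mean goblet marker levels ran from 10.77 to 11.87 on high protein and from 11.49 to 12.28 on normal protein. Mean colonocyte marker levels ran from 11.49 to 12.60 and from 11.84 to 12.28, so these epithelial markers were on average bright on every array. That does not show that the samples were epithelium alone, since the smooth muscle markers were bright too. For smooth muscle the ranges were 10.46 to 11.48 and 11.15 to 11.73, and for macrophages 8.82 to 9.35 and 9.20 to 9.69. The part of these cell types in the differences below was not tested. In tissue RNA, fewer cells of a type and less RNA per cell cannot be told apart.

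Both metallothioneins had higher means on high protein, and their levels on normal protein were widely scattered. Mt1 measured 12.20, 11.45, 14.52, 13.07, 14.11 and 11.20 in normal protein replicates 1 to 6. It measured 14.67, 14.00, 13.97, 14.05, 14.46 and 13.97 in high protein replicates 1 to 6. The high-protein arrays lay within 0.71 of one another and the normal-protein arrays spread over 3.32. Only high protein replicate 1 stood above the top normal-protein array, so the diets overlapped. The means were 14.19 ± 0.30 (SD, n = 6) and 12.76 ± 1.38 (SD, n = 6), a difference of 1.43 ± 0.51 (SE), or 2.69-fold.

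Mt2A, the second metal-binding member, had the same shape with a larger difference. It measured 8.39, 8.41, 12.45, 10.43, 12.57 and 8.39 in normal protein replicates 1 to 6. It measured 12.97, 12.31, 12.13, 11.24, 13.37 and 12.07 in high protein replicates 1 to 6. Normal protein replicates 3 and 5 were above 4 of the 6 high-protein arrays, replicate 4 was in between, and replicates 1, 2 and 6 were low. The means were 12.35 ± 0.75 and 10.11 ± 2.02 (SD, n = 6 each), a difference of 2.24 ± 0.78 (SE), or 4.73-fold. A second Mt2A probe gave 11.99 and 10.45, a difference of 1.54, and followed the first with r = 0.99 over the 12 arrays. The brighter probe stands for the gene, and these were nearly equally bright. With other background corrections, under which the brighter probe was picked anew, the Mt2A difference was 1.58 and 1.64. These may be values of the second probe, so they do not show an effect of background correction itself.

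Copies of the Mt2A probe on an array measured alike, which covers spot noise only and not labelling, RNA or dissection. The array carries 10 spots of that probe, and within an array their SD was 0.07 to 0.35 on the log2 scale, with a median of 0.24. Before normalization, the median spot signal above background was 324, 282 and 258 intensity units in normal protein replicates 1, 2 and 6. In normal protein replicates 3, 4 and 5 it was 3168.5, 1510.5 and 6740.5, and on high protein it ran from 2207 to 11618.5. Replicate 3, among the highest for both genes on that diet, was the dimmest array as a whole.

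**Figure D1:**
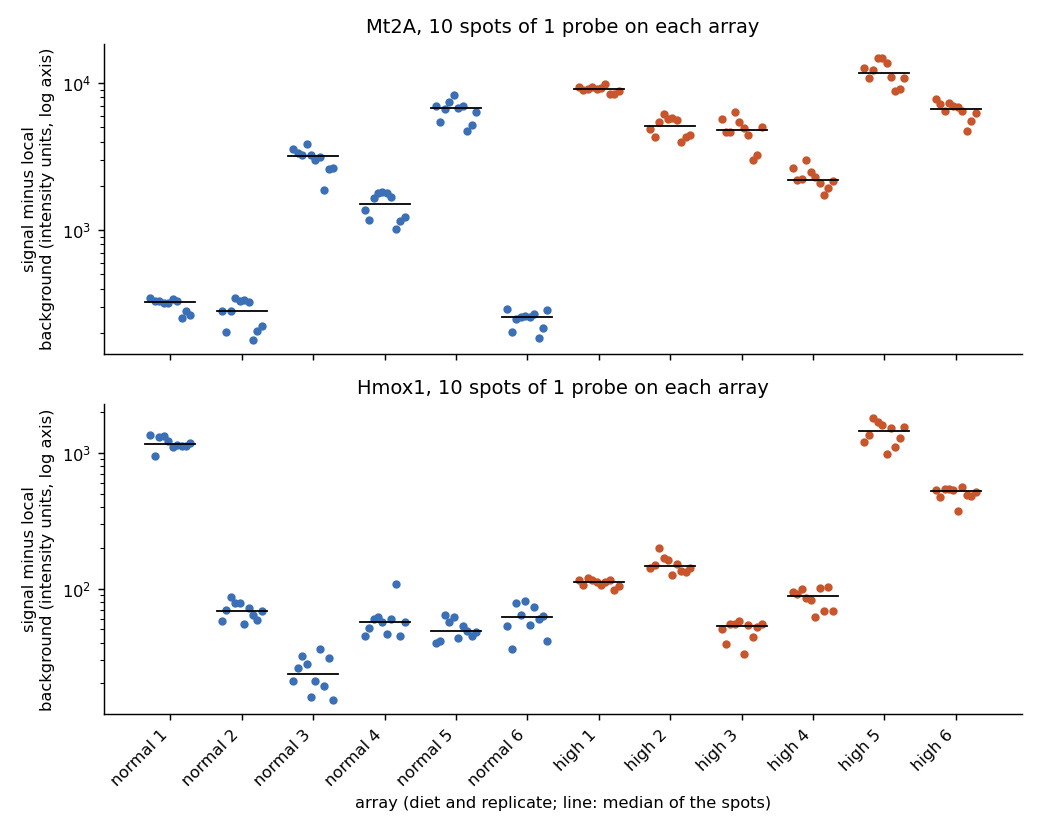
Signal above local background (log axis, intensity units, before normalization) of the 10 spots of the Mt2A probe and of the Hmox1 probe on each array, blue for normal protein and orange for high protein, with a line at the median of the spots. The spots of an array lie close together, while array medians run from 258 to 11618.5 for Mt2A and from 23.5 to 1442.5 for Hmox1.

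Nfe2l2, the gene of the transcription factor itself, was the only tested member with a lower mean on high protein. It measured 10.68, 10.50, 10.61, 11.02, 11.02 and 10.93 in normal protein replicates 1 to 6. It measured 10.39, 10.16, 10.38, 10.75, 9.91 and 10.17 in high protein replicates 1 to 6. On high protein 5 of 6 arrays were below every normal-protein array, and replicate 4 fell within their range. The difference was -0.50 ± 0.14 (SE), from means of 10.29 ± 0.28 and 10.79 ± 0.23 (SD, n = 6 each), so the normal-protein mean was 1.41-fold higher.

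Nqo1, which reduces quinones to hydroquinones, had a higher mean on high protein. It measured 8.05, 7.43, 8.25, 8.92, 7.24 and 7.46 in normal protein replicates 1 to 6. It measured 8.34, 8.99, 9.35, 10.91, 8.99 and 8.77 in high protein replicates 1 to 6. On high protein 4 of 6 arrays were above every normal-protein array, and replicate 4 was the highest by far. The means were 9.22 ± 0.89 and 7.89 ± 0.64 (SD, n = 6 each), a difference of 1.33 ± 0.40 (SE), or 2.52-fold. Without high protein replicate 4 the difference was 0.997.

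**Figure D2:**
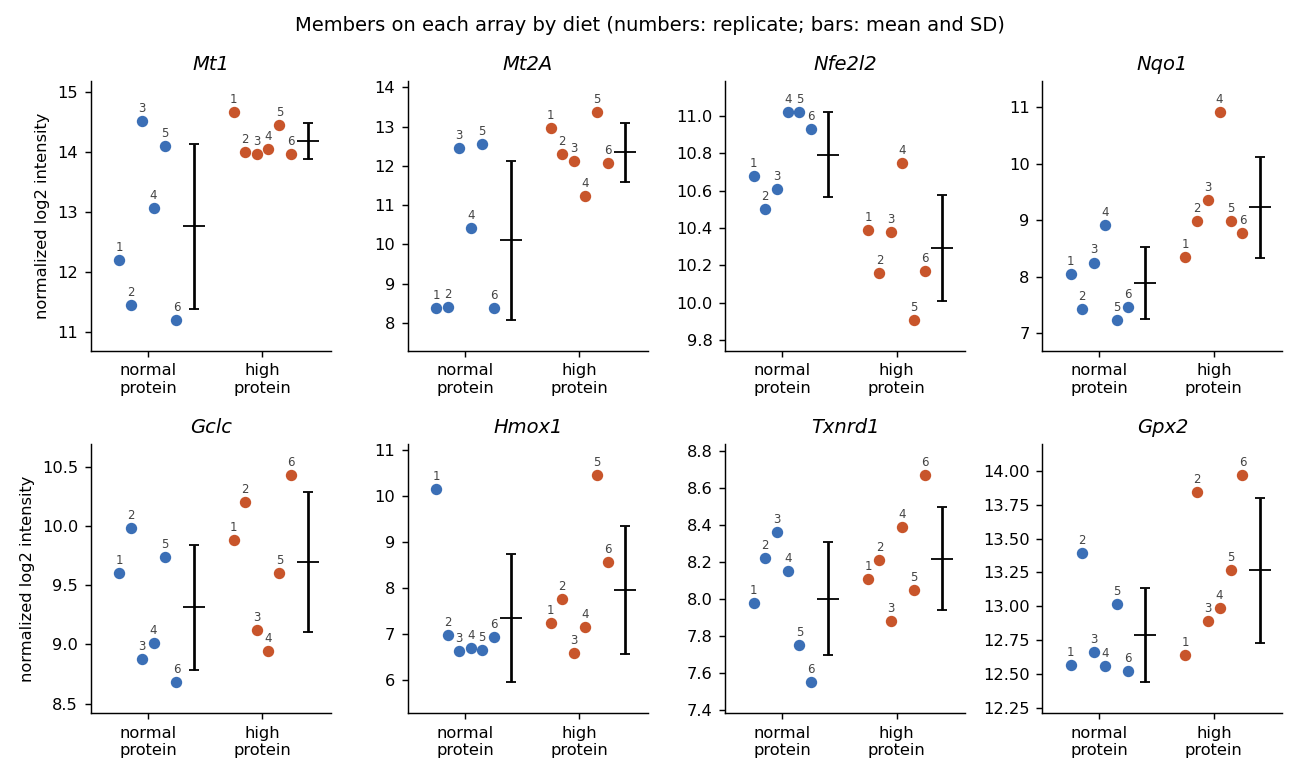
Normalized log2 intensity of the 8 tested genes on each array, with normal protein in blue and high protein in orange, replicate numbers above the points, and bars for the mean and SD (n = 6 each). The normal-protein points of Mt1 and Mt2A are spread over 3.32 and 4.19, and 5 of 6 high-protein points of Nfe2l2 lie below all normal-protein points.

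The other enzymes had smaller differences, and the diets overlapped in each. Gpx2, a glutathione peroxidase of the gut epithelium, ran from 12.64 through a median of 13.13 to 13.97 on high protein. On normal protein it ran from 12.52 through 12.62 to 13.39, and the difference was 0.48 ± 0.24 (SE, n = 6 each), or 1.39-fold. A second Gpx2 probe differed by 0.62 and followed the first with r = 0.89. Gclc, the catalytic subunit of the enzyme that limits glutathione synthesis, ran from 8.94 through 9.74 to 10.43 on high protein and from 8.68 through 9.31 to 9.98 on normal protein. Its difference was 0.38 ± 0.29 (SE), or 1.30-fold, and was 0.23 without high protein replicate 6 and 0.25 without normal protein replicate 6. Txnrd1, which keeps thioredoxin reduced, ran from 7.88 through 8.16 to 8.67 and from 7.55 through 8.06 to 8.36, and differed by 0.22 ± 0.16 (SE), or 1.16-fold. Without replicate 6 of either diet it differed by 0.13. Its 2 probes followed each other only loosely (r = 0.35), and the second was bright enough on 7 of 12 arrays. Gclm, the modifier subunit beside Gclc, was not well above background on any of the 12 arrays, so no fold is given.

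Hmox1, the heme-degrading enzyme, was dim on most arrays and bright on a few. It measured 10.17, 6.98, 6.63, 6.71, 6.66 and 6.94 in normal protein replicates 1 to 6. It measured 7.25, 7.77, 6.59, 7.17, 10.47 and 8.57 in high protein replicates 1 to 6. Normal protein replicate 1 and high protein replicate 5 stood far above the rest, 1 on each diet. In these arrays the median signal of its 10 spots was 1168.5 and 1442.5 intensity units, against 23.5 to 69 on the other normal-protein arrays. The difference was 0.62 ± 0.71 (SE, n = 6 each), or 1.54-fold, with none of the spots marked as good in normal protein replicate 3. Leaving out single arrays moved it between 0.12, without high protein replicate 5, and 1.18, without normal protein replicate 1.

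Of the 8 tested members, 7 had a higher mean on high protein, against 51.5% of all 10451 genes, and 1 had a lower mean, against 48.5%. Mt1, Mt2A and Nqo1 had means 2-fold or more apart, as did 0.306% of all genes in that direction. The arrays of both diets overlapped in all 8, and they were fully apart in 0.383% of all genes. The median difference of the 8 was 0.55, against 0.01 for all genes. These counts describe genes that the same contrast had chosen.

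Within the slides the differences of Mt1, Mt2A, Nqo1, Gpx2 and Nfe2l2 kept their sign, and those of the other genes did not. On slides 1, 2 and 3 Mt1 differed by 0.97, 1.36 and 1.95, and Mt2A by 2.23, 1.17 and 3.33. The Nqo1 difference was 0.52, 2.49 and 0.998, the second slide being that of high protein replicate 4. That of Nfe2l2 was -0.37, -0.52 and -0.61, and that of Gpx2 was 0.62, 0.71 and 0.10. Gclc gave 0.80, 0.47 and -0.13, Hmox1 -0.89, 1.07 and 1.68, and Txnrd1 -0.01, 0.88 and -0.21. Each of these values compares 2 arrays with 2 arrays.

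The arrays also differed in genes that mark position along the gut, which were high on some arrays of both diets. Hoxb13, a gene of the hindmost gut, was 12 or more in normal protein replicates 1 and 2 and in high protein replicates 1, 2, 5 and 6, and 9.32 or less elsewhere. Hoxb6 and Hoxb7, expressed further forward, were above 10 only in normal protein replicate 6 and high protein replicates 3 and 4. Normal protein replicates 3, 4 and 5 were high in none of these genes, and no high-protein array was like them. The mean of Mt1 and Mt2A was 13.48, 11.75 and 13.34 in those replicates, and 10.3, 9.93 and 9.79 in normal protein replicates 1, 2 and 6. A position score (Hoxb13 less the average of Hoxb6 and Hoxb7) was used as a covariate. The differences were then 1.40 for Mt1, 2.20 for Mt2A, 1.41 for Nqo1 and -0.47 for Nfe2l2, close to those without it. This linear score places arrays high in none of the genes between the others, so the part of position was not tested by it.

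The metal and quinone branches were then compared array by array within diets, a variation that had not been used to choose the genes. The metallothionein mean is the mean of Mt1 and Mt2A on an array. It ran from 9.79 to 13.48 on normal protein and from 12.64 to 13.91 on high protein. Its SD was 1.68 and 0.50 (n = 6 each), so correlations with it over 12 arrays rest mostly on the normal-protein arrays. After each diet's mean was subtracted, it followed Nqo1 with r = -0.06 (n = 12, permutation p = 0.84, Benjamini-Hochberg adjusted p = 0.98 over 6 relations) and rho = -0.14 (permutation p = 0.70). Without normal protein replicates 3 and 5, whose metallothionein means lay farthest from the median after that subtraction, r was 0.01. Normal protein replicate 5 paired a high metallothionein mean of 13.34 with the lowest Nqo1 of all arrays, 7.24. High protein replicate 4 paired the highest Nqo1 with the lowest metallothionein mean of its diet, 12.64.

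Within the diets alone r was 0.19 on normal protein (n = 6, exact permutation p = 0.73) and -0.71 on high protein (n = 6, exact permutation p = 0.10). Over 12 arrays the relations of the metallothionein mean to the other genes were weak as well. There r was 0.01 with Nfe2l2, -0.01 with Gclc, -0.18 with Hmox1, 0.11 with Txnrd1 and -0.07 with Gpx2, all with an adjusted permutation p of 0.98. Within normal and high protein r was 0.25 and -0.64 with Nfe2l2, -0.43 and 0.55 with Hmox1, and 0.28 and -0.45 with Txnrd1. With Gclc it was -0.11 and 0.28, and with Gpx2 -0.03 and -0.25. All of these had an adjusted exact permutation p of 0.49 or more (n = 6), and whether they differed between the diets was not tested. The relation with Gclm could not be tested, since Gclm was not above background. A p that misses the threshold with 12 arrays does not show that the branches vary independently.

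**Figure D3:**
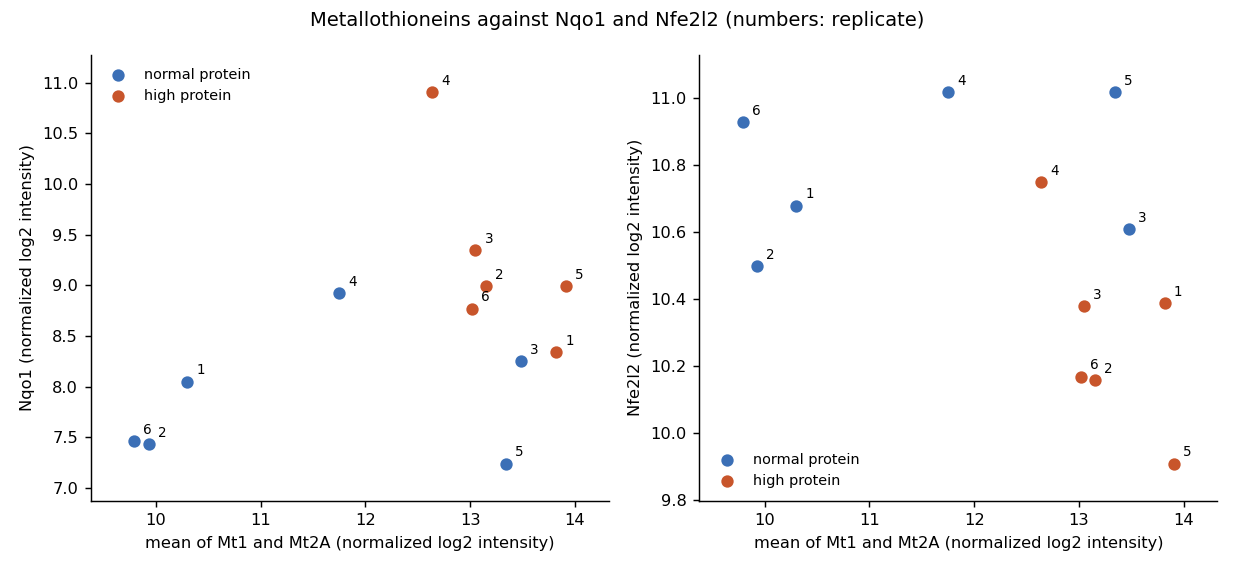
Nqo1 (left) and Nfe2l2 (right) against the mean of Mt1 and Mt2A on the 12 arrays, all in normalized log2 intensity, with normal protein in blue, high protein in orange and replicate numbers beside the points. Normal protein replicates 3 and 5 have metallothionein means of 13.48 and 13.34, within the high-protein range, and Nqo1 of 8.25 and 7.24.

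Within the metal branch Mt1 and Mt2A varied together. Over 28 pairs of members, 14 correlations were positive and 14 negative, 3 had a permutation p under 0.05 and 1 passed after Benjamini-Hochberg adjustment. That pair was Mt1 and Mt2A, with r = 0.94 (n = 12, permutation p = 0.0011, adjusted p = 0.031) and rho = 0.71 (permutation p = 0.020, adjusted p = 0.28). Without normal protein replicates 3 and 5 its r was 0.86, with slide means also removed it was 0.95, and within normal and high protein it was 0.96 and 0.75. Whether the Mt1 and Mt2A probes also bind each other's transcript was not tested.

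Among the 5 tested Nrf2 target enzymes (Nqo1, Gclc, Hmox1, Txnrd1 and Gpx2), 7 of 10 correlations were positive, and the 3 negative ones all involved Nqo1. The 6 pairs without Nqo1 ran from r = 0.03 to r = 0.73, and none of the 10 passed the adjustment. Gclc and Gpx2, both of glutathione metabolism, followed each other with r = 0.73 (n = 12, permutation p = 0.015, adjusted p = 0.21) and rho = 0.71, and with r = 0.66 without high protein replicates 4 and 6. Nqo1 and Gclc ran against each other with r = -0.62 (permutation p = 0.039, adjusted p = 0.36, n = 12) and rho = -0.63. That relation weakened to r = -0.45 without replicate 4 of each diet and to r = -0.40 with the position score as a covariate. Nfe2l2 followed Nqo1 with r = 0.47 (n = 12, permutation p = 0.16, adjusted p = 0.58), and with r = 0.08 without high protein replicates 4 and 5, so what relation there was rested on those arrays.

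Few other genes of metal handling followed the metallothioneins. Of 33 such genes related to the metallothionein mean, 2 had a permutation p under 0.05 over the 12 arrays, 0 passed the adjustment, and the median r was 0.19. The 2 were themselves metallothioneins. Mt4, best known from stratified epithelia, had r = 0.76 (n = 12, permutation p = 0.0049, adjusted p = 0.16) and rho = 0.77. On normal protein alone its r was 0.88 (n = 6, exact permutation p = 0.0014, the smallest possible, adjusted p = 0.046 over 33 relations), and on high protein it was 0.42 (n = 6, exact permutation p = 0.41). Mt3, best known from brain, had r = 0.67 (n = 12, permutation p = 0.037, adjusted p = 0.51) and rho = 0.43, with r = 0.91 on normal protein and 0.05 on high protein. Whether these relations differed between the diets was not tested. Both were dim, at 5.93 to 7.48 and 6.53 to 7.96, and were marked as good on 9 and 10 of 12 arrays. Whether their probes detect Mt1 or Mt2A transcripts was not tested. Slc30a1, a zinc exporter that MTF1 controls, had r = 0.63 (n = 12, permutation p = 0.12, adjusted p = 0.51), and r = 0.26 without normal protein replicates 3 and 5. Mt3, Mt4 and Slc30a1 were singled out after these values were seen.

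Few other Nrf2 targets followed Nqo1. Of 36 relations, 4 had a permutation p under 0.05, 0 passed the adjustment, and the median r was 0.09. The highest was with the ferritin heavy chain Fth1, with r = 0.81 (n = 12, permutation p = 0.012, adjusted p = 0.28), which was 0.25 without replicate 4 of each diet. Without the same arrays the r of Ephx1, an epoxide hydrolase, went from 0.72 to 0.30, and that of Ugdh, which makes the sugar donor for glucuronidation, from 0.71 to 0.14. These relations therefore rested on replicate 4 of each diet. The fourth ran against Nqo1, the glutathione transferase Gsta4, with r = -0.61 (n = 12, permutation p = 0.048, adjusted p = 0.28) and r = -0.31 without those arrays. Fth1, Ephx1 and Ugdh were singled out after their values were seen.

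Over all genes with a symbol, those that followed the metallothionein mean most closely within diets were Zc3h12c (r = 0.91), Exosc4 (0.88), Dnajc12 (0.86), Rnf217 (0.86) and Ubald1 (0.85). Those that followed Nqo1 were Sestd1 (r = 0.89), Ralgds (0.89), Jup (0.86), Atp2b1 (0.86) and Neu3 (0.86). Each r is over the 12 arrays after each diet's mean was removed, and those with the metallothionein mean rest mostly on the normal-protein arrays. Zc3h12c was dim, at 6.26 to 6.80, and was marked as good on 6 of 12 arrays. These 10 genes are the top of 8879 genes searched and are given as a description.

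The other Nrf2 targets were divided between higher and lower means on high protein. Of 40 other Nrf2 targets, 36 were tested, 19 had a higher and 17 a lower mean on high protein, and 0 passed the adjusted threshold (0% of all genes did). Their median difference was 0.02, against 0.01 over all genes. At an unadjusted p under 0.05, 5 of the 36 were higher and 1 was lower, against 3.66% and 2.98% of all genes. On the high side, Abcc4, a drug and prostaglandin exporter, differed by 0.29 ± 0.09 (SE, limma adjusted p = 0.68), with all 6 high-protein arrays above all normal-protein arrays. Akr7a3, an aldo-keto reductase that detoxifies aflatoxin aldehyde, measured 11.78 ± 0.43 and 11.13 ± 0.34 (SD, n = 6 each), a difference of 0.65 ± 0.20 (SE, limma adjusted p = 0.70). The glutathione transferase Gsta4 differed by 0.35 ± 0.13 (SE, limma adjusted p = 0.70). On the low side were Esd at -0.28 ± 0.11, the redox protein Txn1 at -0.82 ± 0.42 and Fth1 at -0.21 ± 0.13 (SE).

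Among Nrf2's partners and regulators, 12 of 17 genes were tested, 8 had a higher mean on high protein and 4 a lower mean, and 0 passed the adjusted threshold in limma. At an unadjusted p under 0.05, 3 were higher and 0 lower, against 3.66% and 2.98% of all genes. Their median difference was 0.11. Mafg, a small Maf protein that pairs with Nrf2 on DNA, measured 7.82 ± 0.12 and 7.57 ± 0.09 (SD, n = 6 each), a difference of 0.26 ± 0.07 (SE, limma adjusted p = 0.68). On high protein 5 of 6 arrays were above every normal-protein array. The kinase gene Gsk3b differed by 0.16 and the repressor gene Bach2 by 0.21. Keap1, the inhibitor of Nrf2, differed by 0.15 and was named after its value was seen. Rbx1, of the ubiquitin ligase that Keap1 recruits, differed by -0.18.

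Metal handling was evenly divided with quantile normalization, while 10 genes had a higher mean with 75th percentile scaling and 23 with median scaling. Of 37 genes 33 were tested, 17 had a higher and 16 a lower mean on high protein, 0 passed in limma, and the median difference was 0.00. At an unadjusted p under 0.05, 0 were higher and 2 lower (3.66% and 2.98% of all genes), the transferrin receptor Tfrc at -0.43 ± 0.18 (SE) and the iron oxidase Heph at -0.29 ± 0.13 (SE). Mt3 differed by -0.45 ± 0.21 (SE), opposite in sign to Mt1 and Mt2A. Among zinc transporters, Slc39a3 differed by 0.13 and Slc30a9 by 0.09. Slc39a9 differed by 0.93 ± 0.69 (SE), which rests on high protein replicate 4 at 11.42.

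**Figure D4:**
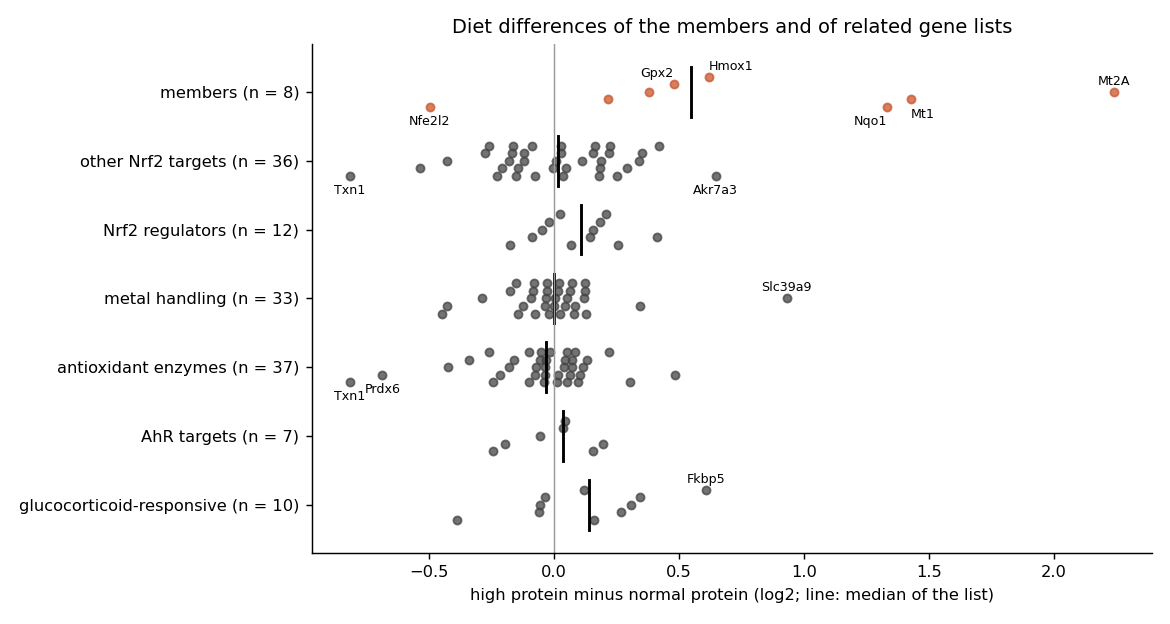
High protein minus normal protein (log2) for the 8 tested metallothionein and Nrf2 genes (orange) and for the tested genes of 6 related lists (grey), with 1 point per gene, placed at small vertical offsets, and a line at each list's median. The medians of the 6 lists lie between -0.03 and 0.14 and that of the 8 genes, which the same contrast chose, at 0.55.

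Lists of neighbouring systems were also divided. Of 41 redox genes, some also Nrf2 targets, 37 were tested, with 17 higher, 20 lower and a median of -0.03. Beside antioxidant enzymes the list takes in Duox2, Duoxa2, Ero1a, Txnip, Chac1 and Chac2, so its split does not describe antioxidant enzymes alone. Median scaling gave 24 higher and the deposited signal minus background gave 14. At an unadjusted p under 0.05, 1 was higher and 1 lower (3.66% and 2.98% of all genes), glutathione reductase Gsr at 0.22 ± 0.09 (SE) and the selenium carrier Selenop at -0.42 ± 0.15 (SE). Glutathione synthetase Gss differed by 0.31 and catalase Cat by -0.34. Targets of the aryl hydrocarbon receptor, which also switches on Nqo1, had 7 of 12 genes tested, with 4 higher, 3 lower and 0 at an unadjusted p under 0.05. Among them Ahrr differed by 0.20, Aldh3a1 by 0.16, Nqo2 by -0.24 and Tiparp by -0.19. None of the genes of these lists passed an adjusted limma p of 0.05.

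Glucocorticoid-responsive genes were included because glucocorticoids also raise metallothioneins. Of 14 genes 10 were tested, with 6 higher and 4 lower means and a median difference of 0.14. The alternatives, some of which tested other numbers of genes, gave 5 to 9 higher. At an unadjusted p under 0.05 in limma, 1 was higher and 0 lower (3.66% and 2.98% of all genes), and 0 passed after adjustment. That gene was Fkbp5, a co-chaperone of the glucocorticoid receptor, with a difference of 0.61 ± 0.13 (SE, limma adjusted p = 0.68, n = 6 each). Klf15 differed by 0.35 and Ddit4 by 0.27, both transcripts that the hormone raises in other tissues. Tsc22d3, the glucocorticoid-induced leucine zipper, differed by -0.39.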

How the data were processed

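Each of 12 samples was hybridised to 1 one-colour Agilent array. Per the file headers, spots were scanned at 532 nm and measured with GenePix Pro 6.1.0.4. The deposited intensity values are linear and not normalized. A deposited flag, used as a score, has the value 100 for a good spot. The authors also deposited a table of log2 values, for which the submitters' processing notes name RMA. Its IDs match the scanner values only when moved by 1 row, so it served as an alternative. Its column medians were 4.40, 4.45, 4.43, 4.40, 4.43 and 4.36 for normal protein replicates 1 to 6 and 4.41, 4.40, 4.39, 4.41, 4.40 and 4.41 for high protein replicates 1 to 6. With the IDs so moved its scale and direction are known and its centring is not.

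From the mean of each spot and the median of its surroundings, background was removed by normexp (offset 50), and arrays were quantile normalized with limma 3.58.1 in R 4.3.3. Spots of a probe were averaged after control spots were dropped. Probes entered the test when 0.5 or more of their spots were good on 6 or more of the 12 arrays. The brightest probe stood for a gene, which gave 10451 genes. Of 22031 probes with a RefSeq accession, 18355 matched a symbol. Diets were compared with lmFit and eBayes and Benjamini-Hochberg adjustment at 0.05, with no covariates. Correlations used 100000 permutations within diet (n = 12) or all 720 pairings (n = 6, smallest p 0.0014). They were two-sided and were adjusted within each family of relations. The fit was tested on simulated data. The number of arrays limits the precision.

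Members and lists were chosen with earlier results of these data known. All 9 members were named. Each list contributed up to 3 tested genes a side with the smallest p, and the 5 genes most like the metallothionein mean and Nqo1 were named. Other names were chosen after their values were seen. Alternatives were other scalings, background corrections, filters, probe rules, slide and replicate blocks, a position covariate, the deposited table and leaving out each array.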

Additional observations from a re-analysis of the deposited data

Results flagged for a closer look

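Hmox1 in normal protein replicate 1 stood apart from the other 5 arrays of its diet. It measured 10.17 against 6.63 to 6.98, and its gap to the nearest array was 0.901 of the whole range of the group. Of 16 groups of 6 arrays examined, 8 genes on each diet, this was the only one past the limit of Dixon's test, and chance alone passes about 1 in 20 groups.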

How the results depend on the processing

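Of 508 recomputed values, 8 changed sign and 7 others moved by more than the spread between arrays or, for counts, by over 1.5 times. The other 493 stayed within these limits, though not always at the same size. A count within its limit could still change which side held more genes. The redox genes had 17 of 37 higher with quantiles and 24 with median scaling. No gene passed the adjusted limma threshold under any scaling, filter, probe rule, covariate or left-out array. Within slide 3 alone 1 gene passed, Bik, with a difference of 5.89. The sign changed for Gclc within slide 3 (-0.13), Hmox1 within slide 1 (-0.89) and Txnrd1 within slides 1 and 3 (-0.011 and -0.21). The correlation of the metallothionein mean with Nqo1 was 0.031 with the position covariate. It ran from -0.19 to 0.12 when single arrays were left out, and was above 0 without normal protein replicate 5 or high protein replicates 1 or 4. Over the alternatives, Mt1 differed by 0.97 to 1.95, Mt2A by 1.17 to 3.33, Nqo1 by 0.52 to 2.49, Gpx2 by 0.10 to 0.71, Hmox1 by -0.89 to 1.68 and Nfe2l2 by -0.61 to -0.33. Metal handling had 10 genes with a higher mean under 75th percentile scaling and also with probes required on all 12 arrays, a filter that left Hmox1 out, and 23 with median scaling. Targets of the aryl hydrocarbon receptor had 2 under that filter. It leaves fewer genes to test, and the counts under it were not set against the number left.

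Scaling moved the split of genes at an unadjusted p under 0.05: 383 higher and 311 lower with quantiles, 318 and 481 with the 75th percentile, and 1128 and 78 with medians, which placed the median of all genes at 0.10. With the replicate number as a block 0 genes passed (smallest adjusted p 0.34). Same-numbered arrays correlated at -0.11 to 0.40, 3 of 6 pairs over 0.1, and 2 of 6 matched their own number best, so the numbers were not taken as pairs.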
